A study of Homo sapiens with 30 samples.

Results

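The change of the wild-type (WT) transcriptome between day 4 (D4) and day 8 (D8) of cardiomyocyte differentiation is described here, over all genes of the deposited table. The libraries were chosen by their column names: WT replicates 1, 2 and 3 at D4 and WT replicates 2, 3 and 4 at D8, which are 6 of the 18 whole-cell libraries and of the 30 samples in the series. Of 39126 genes listed, 21761 passed the filter on low counts and were tested. The cells were Hues6, a human embryonic stem cell line, and the study compared them with a QKI knockout (KO) of that line along the same course; nuclear RNA at D8 and a 293T knockdown were also sequenced and are not used here. Both WT groups had been plated with 1.5 uM CHIR, an inhibitor of GSK3 that switches on WNT signalling, and 1.5 ng/mL BMP4, and were later given C59, which blocks the secretion of WNT proteins, at 100 nM. The D4 cells were taken at the end of the first exposure to C59, a stage the protocol names cardiac progenitors. The D8 cells had received C59 for a further day, and were collected after beating had been seen. For that further day the protocol prints the C59 dose as 100 mM, which was taken for a typing error for 100 nM. No sorting of the cultures is described in the labels, and KO cells, used below for comparison, had received 1.25 uM CHIR with the same BMP4.

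In the embryo, heart muscle arises from mesoderm that leaves the primitive streak, passes through a progenitor state marked by factors such as MESP1, and then switches on a core of cardiac transcription factors, among them NKX2-5, GATA4, TBX5 and MEF2C. These factors act together on genes of the sarcomere, the repeating unit in which myosin thick filaments pull on actin thin filaments anchored at the Z-disc. Contraction is triggered when calcium enters through the membrane and is released from the sarcoplasmic reticulum, and it is fuelled by mitochondria. In the culture protocol used here, WNT signalling is raised first and blocked afterwards, a scheme modelled on the signals of the embryo.

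The 3 D4 libraries held 40001076 to 52561831 counts and the 3 D8 libraries 75196527 to 89948185, so low genes were measured with more counts at D8. Levels are given as CPM, counts relative to library totals scaled by TMM factors, and changes as the log2 fold change of D8 against D4 from edgeR. SE is the size of a log2 change or difference divided by the square root of edgeR's quasi-likelihood F statistic. It is not a standard error given by edgeR. It need not cover the counting error of genes with few counts at D4, such as HSPB7, PLN and MYH7. A gene was called where its Benjamini-Hochberg adjusted p was under 0.05 over all 21761 genes. By that rule 68.8% of the tested genes were called (14975 genes), 35.0% higher (7624) and 33.8% lower (7351), and the median change over all tested genes was 0.01. Every count of called list members below is to be read beside these shares, and a count near them sets no list apart. Called and at least 2-fold were 29.0% (6310 genes), 13.9% higher and 15.1% lower. In 71.4% of the tested genes the days did not overlap, meaning that every library of one day lay above every library of the other. Whether the libraries within a group derive from separate cultures is not stated in the labels; the p-values therefore cover the spread among these libraries, which may be technical. In whole cultures, a change in the share of a cell type and a change in RNA per cell cannot be told apart. Genes of the mitochondrial genome took 15.5% to 18.9% of the counts at D4 and 6.83% to 7.93% at D8, and this shift enters every value given in CPM.

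**Figure D1:**
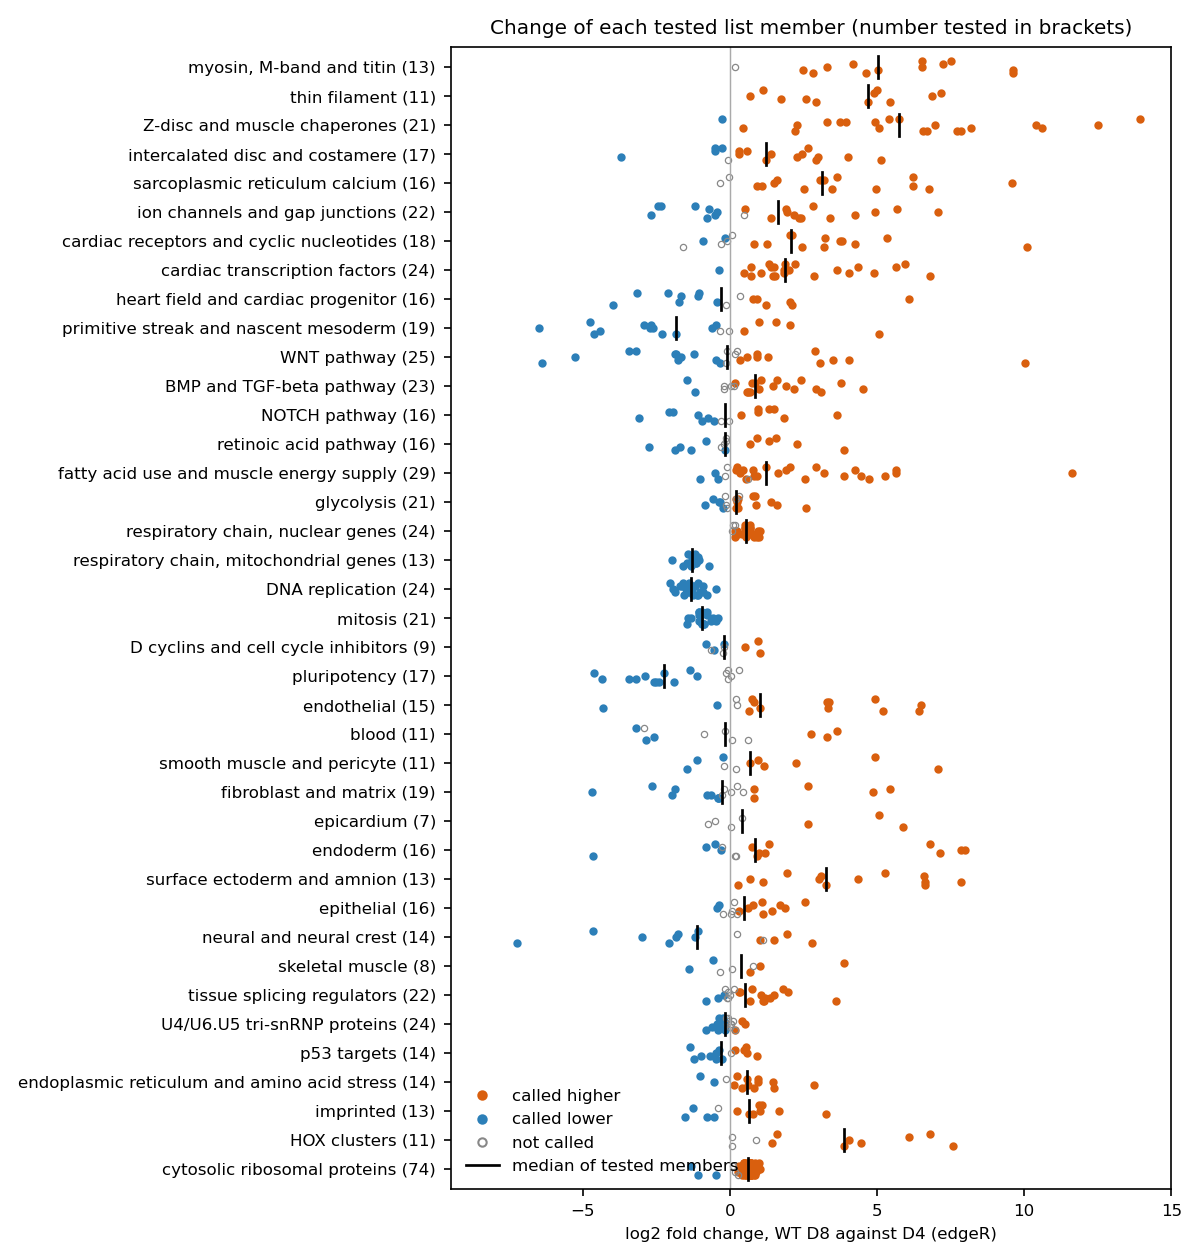
Each point is the log2 fold change (horizontal axis, WT D8 against D4) of 1 tested member of a gene list (vertical axis, with the number tested), coloured by whether it was called higher, called lower or not called; black bars mark the median. Contractile lists lie far to the right, with medians of 4.68 to 5.76, while the tested replication, mitosis and mitochondrial members all lie to the left of 0.

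Genes of the contractile apparatus rose together. Of 46 genes on the 3 contractile lists (thick filament, thin filament, Z-disc), 45 were tested; 43 were called higher, 41 of them at least 2-fold, 1 was lower and 1 was not called, against the 35.0% of all tested genes called higher. Their medians were 5.02, 4.68 and 5.76, beside 0.01 over all tested genes. The first was 4.64 with its 1 gene at 0 counts at D4 set at its bound. MYH6, the alpha myosin heavy chain typical of the atria and of early heart muscle, had 12.6, 8.01 and 11.2 CPM in the 3 D4 libraries and 10940, 8280 and 5737 in the 3 D8 libraries. Every D8 library was far above every D4 library, and the change was a log2 fold change 9.61 (SE 0.27, edgeR adjusted p = 2.36e-17). MYH7, the slower beta heavy chain of the adult ventricle, had 0.0563, 0.104 and 0.12 CPM in the 3 D4 libraries and 79.4, 88.4 and 49.7 in the 3 D8 libraries, with a log2 fold change 9.61 (SE 0.30, edgeR adjusted p = 9.51e-17). MYH7 was near 0 in every D4 library, whereas MYH6 was already measured there, and both were far higher in every D8 library.

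Levels of different genes are set side by side per kilobase of exon, taking all annotated exons of a gene together. That length can exceed the length of the transcripts made, so close ranks are uncertain. MYH6 reached 1685, 1275 and 884 CPM per kb in the D8 libraries and MYH7 13.1, 14.5 and 8.16. The alpha chain was thus the higher in every D8 library, and it was also higher in every D4 library. Among regulatory light chains, the atrial MYL7 had 36.4, 31.9 and 38.4 CPM per kb at D4 and 1400, 1191 and 883 at D8, whereas the ventricular MYL2 had no count at D4 and 0.202, 0.391 and 0.12 CPM per kb at D8. The fold of MYL2 against a floor of 3 counts over the D4 group was at least 14.9-fold higher. The essential light chains MYL4 and MYL3 rose from 44.1 to 1096 CPM and from 3.21 to 295 CPM. Myosin binding protein C (MYBPC3) rose from 2.31 to 212 CPM and the M-band protein MYOM1 from 1.06 to 194 CPM.

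TTN, titin, the giant spring that runs from Z-disc to M-band, had 213, 179 and 193 CPM in the 3 D4 libraries and 1283, 1119 and 872 in the 3 D8 libraries, a log2 fold change 2.48 (SE 0.11, edgeR adjusted p = 2.13e-14). Days did not overlap. Per kilobase of exon, TTN had 1.79, 1.51 and 1.62 CPM per kb at D4, close to MYH6 at 1.94, 1.23 and 1.73, and 10.8, 9.41 and 7.33 at D8, far below MYH6.

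In the thin filament, cardiac actin ACTC1 had 105, 84.7 and 80.7 CPM in the 3 D4 libraries and 4627, 3965 and 3012 in the 3 D8 libraries, with a log2 fold change 5.42 (SE 0.17, edgeR adjusted p = 1.31e-16). Cardiac troponin T (TNNT2) had 10.9, 6.49 and 7.6 CPM in the 3 D4 libraries and 1085, 1039 and 786 in the 3 D8 libraries, with a log2 fold change 6.86 (SE 0.27, edgeR adjusted p = 5.64e-15). The days were far apart for both, and the lowest D8 value of each was in replicate 4. All 11 tested genes of the 12 on this list were called higher; LMOD3 was too low to be tested. TPM1, a tropomyosin that covers the myosin sites on actin, was already at 539 ± 50.4 CPM at D4 (SD, n = 3) and reached 3208 ± 139 at D8, and TNNC1, the calcium sensor shared by slow and cardiac muscle, rose from 11.4 to 292 CPM.

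Per kilobase of exon, the troponin I pair changed its order. TNNI1, the slow skeletal form that also serves the fetal heart, had 0.561, 0.694 and 1.19 CPM per kb at D4 and 142, 118 and 86.7 at D8, and TNNI3, the adult cardiac form, had 3.33, 3.3 and 2.77 at D4 and 6.87, 7.38 and 6.08 at D8. TNNI3 was the higher of the pair in every D4 library and TNNI1 in every D8 library. Both were called higher, with log2 fold changes of 7.17 (SE 0.25) and 1.11 (SE 0.14). Skeletal actin ACTA1 rose less than ACTC1, from 21.3 to 71.7 CPM; actin genes are near-identical in sequence, so their levels are uncertain where reads could be assigned to more than 1 of them, and the same holds for MYH6 and MYH7.

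**Figure D2:**
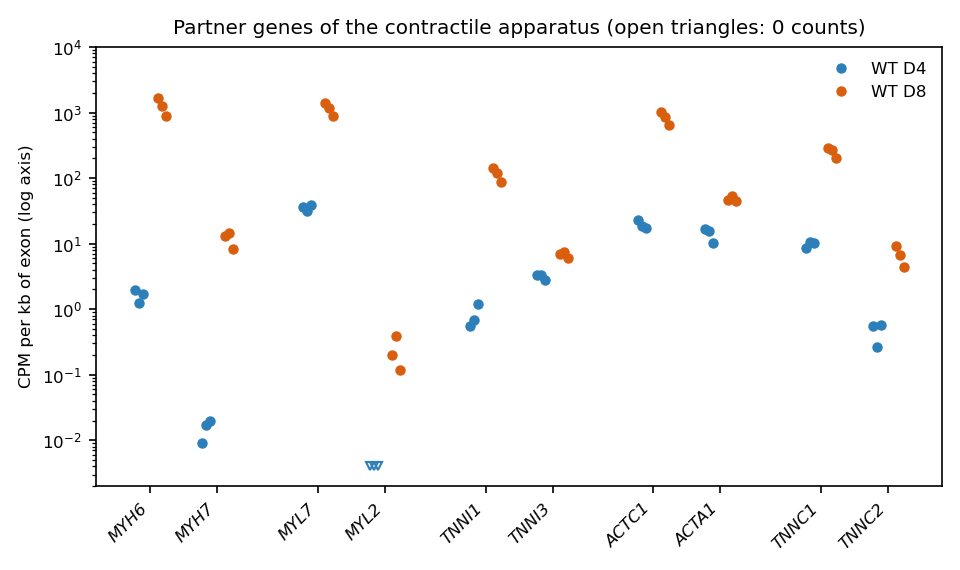
Levels of partner genes of the contractile apparatus in CPM per kb of exon (vertical log axis), 1 point per library, D4 and D8; open triangles mark libraries with 0 counts. The gene on the left of each pair is the higher at D8 in every library, and TNNI1 passes TNNI3 between the days.

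Z-disc and chaperone genes included those that came on from nothing. CSRP3, a LIM protein that senses stretch at the Z-disc, had no count in any D4 library and 35.9, 39.9 and 24.6 CPM at D8, at least 1566-fold higher against a floor of 3 counts over the D4 group. HSPB7, a small heat shock protein of muscle, had 0.0938, 0.0208 and 0.048 CPM in the 3 D4 libraries and 376, 361 and 276 in the 3 D8 libraries, with a log2 fold change 12.51 (SE 0.26, edgeR adjusted p = 4.6e-19). Both were high in each D8 library and at or near 0 in each D4 library. SMPX rose from 0.0683 to 111 CPM and MYOZ2, which tethers calcineurin to the Z-disc, from 0.0132 to 21.7 CPM, a counting ratio of 1520 (95% interval 421 to 12550) that rests on 2 counts at D4. Alpha-actinin 2 (ACTN2), the main crosslinker of the Z-disc, had 1.97, 2.06 and 1.73 CPM in the 3 D4 libraries and 476, 434 and 296 in the 3 D8 libraries. The exception on the list was FLNC, a filamin of muscle, at 674, 625 and 588 CPM in the 3 D4 libraries and 596, 532 and 442 in the 3 D8 libraries; its days overlapped, and its lower call at a log2 fold change of -0.27 was lost without D4 replicate 1 (-0.21) or D8 replicate 4 (-0.15), with mitochondrial genes left out of the totals (-0.22), and with the replicate number as a block (-0.25).

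**Figure D3:**
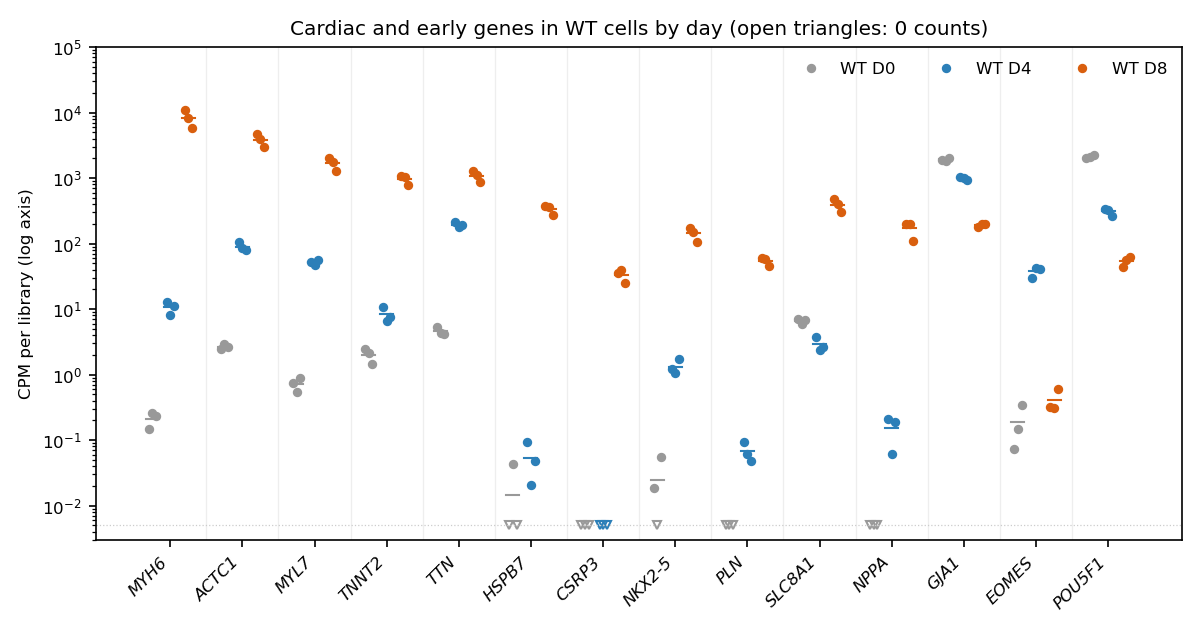
CPM of 14 genes in each WT library (vertical log axis) at D0, D4 and D8, with bars for group means and open triangles for 0 counts. Contractile, NKX2-5, PLN, SLC8A1 and NPPA values at D8 lie above those of both other days, while GJA1, EOMES and POU5F1 fall between D4 and D8.

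The starts of 5 of these genes are shown because they rose together and carry short motifs known from muscle promoters. Sequences are RefSeq (GRCh38.p14), the 250 bases before the annotated start, 5′ to 3′ on the gene's strand. Capitals mark the TATA box (TATAAA), the CArG box bound by SRF, the MEF2 box, the M-CAT element bound by TEAD factors (CATTCC) and a GATA element (AGATAA), each searched on both strands.
ACTC1: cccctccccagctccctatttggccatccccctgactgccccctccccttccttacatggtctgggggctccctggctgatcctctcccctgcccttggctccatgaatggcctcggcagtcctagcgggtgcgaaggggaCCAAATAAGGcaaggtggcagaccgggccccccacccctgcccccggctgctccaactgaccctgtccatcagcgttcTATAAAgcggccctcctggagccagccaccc
MYH6: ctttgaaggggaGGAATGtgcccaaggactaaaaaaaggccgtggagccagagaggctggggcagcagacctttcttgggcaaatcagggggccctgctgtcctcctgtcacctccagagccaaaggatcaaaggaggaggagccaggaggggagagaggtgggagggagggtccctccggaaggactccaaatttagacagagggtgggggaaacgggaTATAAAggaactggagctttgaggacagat
MYL7: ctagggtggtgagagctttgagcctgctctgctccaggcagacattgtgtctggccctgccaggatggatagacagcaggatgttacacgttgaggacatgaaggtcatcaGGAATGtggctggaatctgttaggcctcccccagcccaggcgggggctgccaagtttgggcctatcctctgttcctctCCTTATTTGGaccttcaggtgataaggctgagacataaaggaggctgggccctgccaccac
HSPB7: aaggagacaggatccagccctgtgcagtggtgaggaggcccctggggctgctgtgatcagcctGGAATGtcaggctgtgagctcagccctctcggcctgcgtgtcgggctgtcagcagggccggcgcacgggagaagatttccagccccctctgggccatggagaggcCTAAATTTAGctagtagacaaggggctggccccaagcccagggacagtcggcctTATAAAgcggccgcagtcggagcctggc
SMPX: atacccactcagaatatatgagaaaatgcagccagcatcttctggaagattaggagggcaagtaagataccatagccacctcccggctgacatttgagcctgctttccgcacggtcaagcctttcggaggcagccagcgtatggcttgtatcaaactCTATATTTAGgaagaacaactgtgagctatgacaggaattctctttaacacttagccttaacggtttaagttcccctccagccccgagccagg
These lie on the minus strand at chr15:34795550-34795799 (ACTC1), chr14:23408274-23408523 (MYH6), chr7:44141333-44141582 (MYL7), chr1:16018044-16018293 (HSPB7), chrX:21758117-21758366 (SMPX). ACTC1 holds a CArG box and a TATA box, MYL7 a CArG box and an M-CAT element, MYH6 a TATA box and an M-CAT element, HSPB7 a TATA box, a MEF2 box and an M-CAT element, and SMPX a MEF2 box. None of the 5 holds the GATA element as AGATAA, and other spellings of it were not searched. Of the 46 contractile genes, 33 had a RefSeq promoter in the table; 5 held a CArG box (15.2%), 6 a MEF2 box (18.2%), 9 an M-CAT element (27.3%), 11 the GATA element (33.3%) and 7 the TATA box (21.2%). Over all 27305 promoters of the same length the shares were 1.14%, 0.535%, 11.9%, 9.37% and 11.1%. A match describes these letters and is no evidence of binding; the genes shown were chosen after their values were seen.

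Calcium handling rose with the filaments. Of 16 tested genes of the sarcoplasmic reticulum list, 14 were higher and 2 were not called, with a median of 3.12. PLN, the brake on the reticulum's calcium pump, had 0.0938, 0.0624 and 0.048 CPM in the 3 D4 libraries and 60.7, 59.1 and 44.8 in the 3 D8 libraries, with a log2 fold change 9.57 (SE 0.26, edgeR adjusted p = 1.7e-16). The pump itself, ATP2A2, was already expressed, at 396, 377 and 357 CPM in the 3 D4 libraries and 782, 770.4 and 576 in the 3 D8 libraries, with a log2 fold change 0.91 (SE 0.09, edgeR adjusted p = 9.8e-09). Days did not overlap for either gene, and the brake changed far more than the pump. RYR2, the release channel, rose from 10.1 to 112 CPM, and TRDN and CASQ2, which anchor and buffer calcium beside it, rose from 1.59 to 50.1 CPM and from 0.033 to 2.76 CPM.

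Membrane channels changed in both directions: of 22 on the list, all tested, 13 were higher, 8 lower and 1 was not called. SLC8A1, the sodium-calcium exchanger, had 3.71, 2.39 and 2.66 CPM in the 3 D4 libraries and 476, 400.3 and 302 in the 3 D8 libraries, with a log2 fold change 7.06 (SE 0.18, edgeR adjusted p = 4.33e-18). GJA1, the main gap junction protein of the ventricle and also abundant in stem cells, went the other way, with 1037, 1017 and 926 CPM in the 3 D4 libraries and 179.9, 199 and 202 in the 3 D8 libraries and a log2 fold change -2.36 (SE 0.10, edgeR adjusted p = 2.51e-14). Neither gene overlapped between days. The L-type calcium channel CACNA1C rose from 4.28 to 44.8 CPM, the pacemaker channel HCN4 from 12.3 to 62.6 CPM, the potassium channel KCNH2 from 9.83 to 44.5 CPM and the inward rectifier KCNJ2 from 0.249 to 12.2 CPM. The calcium channel subunit CACNA2D2 fell from 106 to 16.5 CPM, and the atrial potassium channel KCNJ3 fell from 2.63 to 0.482 CPM.

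Of 19 genes of the intercalated disc and costamere, which join heart cells and tie the sarcomere to the membrane, 17 were tested; 12 were higher and 4 lower. CTNNA3, a catenin of the disc, rose from 3.11 to 50.7 CPM and POPDC2, a cAMP-binding membrane protein, from 2.06 to 73.3 CPM, whereas the desmosomal cadherin DSG2 fell from 323 to 266 CPM. Among 18 hormone, receptor and cyclic nucleotide genes, 12 were higher and 2 lower. NPPA, the atrial natriuretic peptide, had 0.206, 0.0624 and 0.192 CPM in the 3 D4 libraries and 199, 200.2 and 109.7 in the 3 D8 libraries, with a log2 fold change 10.09 (SE 0.31, edgeR adjusted p = 1.6e-14). NPPB, its ventricular relative, had 1.89, 0.769 and 0.84 CPM in the 3 D4 libraries and 17.4, 26.6 and 23.5 in the 3 D8 libraries. Both peptides were higher in every D8 library than in any D4 library, and NPPA in D8 replicate 4 was the lowest of its group. The muscarinic receptor CHRM2, through which the vagus slows the heart, rose from 0.173 to 6.85 CPM.

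The cardiac transcription factors were called higher in 23 of 24 cases, with a median of 1.85. NKX2-5 had 1.2, 1.04 and 1.7 CPM in the 3 D4 libraries and 176, 151 and 104 in the 3 D8 libraries, with a log2 fold change 6.79 (SE 0.21, edgeR adjusted p = 1.1e-16). MEF2C had 1.48, 1.62 and 2.85 CPM in the 3 D4 libraries and 153, 120.4 and 87.6 in the 3 D8 libraries, with a log2 fold change 5.95 (SE 0.26, edgeR adjusted p = 2.53e-14). TBX5, a factor of the first heart field, had 1.03, 1.19 and 2.47 CPM in the 3 D4 libraries and 29.5, 28.6 and 18 in the 3 D8 libraries. None of the 3 genes overlapped between days, and for each the lowest D8 value was that of replicate 4. Factors already present at D4 moved less: GATA4 rose from 60.6 to 99 CPM, TBX20 from 8.22 to 32.8 CPM and HAND1 from 67.6 to 244 CPM. MYOCD, the partner of SRF at smooth and cardiac muscle genes, rose from 33 to 237 CPM, and the ventricular factor IRX4 from 0.487 to 9.94 CPM. GATA6 was the only tested member called lower, at 39.8, 48.1 and 66.5 CPM in the 3 D4 libraries and 40.5, 41.7 and 36.2 in the 3 D8 libraries; its days overlapped, and without D4 replicate 3 the log2 fold change went from -0.38 to -0.16 and the call was lost.

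The label of cardiac progenitors at D4 covered cultures in which the receptors PDGFRA and KDR were abundant and NKX2-5 was still low, and the label of cardiomyocytes at D8 cultures rich in MYH6, TNNT2 and ACTN2 in all 3 libraries. Of 16 heart field genes, 6 were higher and 8 lower, beside 35.0% and 33.8% of all tested genes. ISL1, the factor of the second heart field, had 24.1, 25.6 and 35.6 CPM in the 3 D4 libraries and 123, 119 and 122 in the 3 D8 libraries, with a log2 fold change 2.10 (SE 0.11, edgeR adjusted p = 8.54e-13). PDGFRA, a receptor of cardiac mesoderm, had 262, 254 and 340.2 CPM in the 3 D4 libraries and 86, 58.2 and 54.5 in the 3 D8 libraries, with a log2 fold change -2.11 (SE 0.13, edgeR adjusted p = 8.75e-12). The first rose and the second fell without overlap between days. KDR, the VEGF receptor that marks early cardiovascular mesoderm, had 206, 173 and 199 CPM in the 3 D4 libraries and 193, 166 and 162 in the 3 D8 libraries and was not called (edgeR adjusted p = 0.0848), although it was called lower without D4 replicate 2 (-0.22) or D8 replicate 2 (-0.23), with each use of DESeq2 or its size factors (-0.19) and at equal depth (-0.17).

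Streak and nascent mesoderm genes mostly fell. Of 21 on the list, 19 were tested; 12 were lower and 5 higher, with a median of -1.84. EOMES, a T-box factor that starts mesoderm and endoderm, had 30.0, 42.9 and 40.9 CPM in the 3 D4 libraries and 0.325, 0.304 and 0.603 in the 3 D8 libraries, with a log2 fold change -6.48 (SE 0.25, edgeR adjusted p = 3.09e-15). MESP1 had 3.69, 5.41 and 4.53 CPM in the 3 D4 libraries and 0.973, 0.748 and 0.409 in the 3 D8 libraries, and the apelin receptor APLNR had 254, 319 and 282 CPM in the 3 D4 libraries and 52.2, 40.9 and 36.7 in the 3 D8 libraries. Each was lower in every D8 library than in any D4 library. Brachyury (T) was already low, at 0.333 ± 0.0365 CPM at D4 (SD, n = 3). The 5 that rose were at low levels, among them the homeobox gene EVX1, from 0.571 to 2.35 CPM, and NODAL, from 1.33 to 2.72 CPM.

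The stem cell programme fell further. Of 17 pluripotency genes, 12 were lower and 5 were not called, with a median of -2.23. POU5F1 had 341, 331 and 263 CPM in the 3 D4 libraries and 44.3, 56.5 and 62.4 in the 3 D8 libraries, with a log2 fold change -2.52 (SE 0.13, edgeR adjusted p = 4.08e-13), and SOX2 had 107, 105 and 81.8 CPM in the 3 D4 libraries and 12.7, 13.7 and 13.3 in the 3 D8 libraries, with a log2 fold change -2.89 (SE 0.09, edgeR adjusted p = 5.57e-17). NANOG, already at 1.46 ± 0.191 CPM at D4, fell to 0.0684 ± 0.0215 (SD, n = 3). LIN28A, the RNA-binding protein that blocks let-7, stayed in the same range, at 1330, 1356 and 1384 CPM in the 3 D4 libraries and 1084, 1238 and 1397 in the 3 D8 libraries; it was not called (edgeR adjusted p = 0.14), but was called lower without D8 replicate 4 (-0.22) and in DESeq2 (-0.17).

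Among the genes with the 12 lowest log2 fold changes was the row named MIR302B, whose identifier is that of MIR302CHG, the host transcript of the miR-302/367 cluster of stem cell miRNAs. It had 248, 249 and 184 CPM in the 3 D4 libraries and 2.32, 1.61 and 1.54 in the 3 D8 libraries, with a log2 fold change -6.96 (SE 0.17, edgeR adjusted p = 2.64e-18), and was low in every D8 library. The transcript lies on the strand opposite LARP7, and since the strand setting of the counting is not known, reads of the pair cannot be told apart. Conversely, MYH6 and MYH7B, which rose, are the hosts of miR-208a and miR-499a. Mature miRNAs were not measured here; the rows count host transcripts, and these sequences are shown, with the seed (bases 2 to 8) in capitals, because their hosts are among the genes that changed. They were chosen after the values were seen.
hsa-miR-302a-3p: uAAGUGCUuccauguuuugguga
hsa-miR-302b-3p: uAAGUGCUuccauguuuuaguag
hsa-miR-302c-3p: uAAGUGCUuccauguuucagugg
hsa-miR-302d-3p: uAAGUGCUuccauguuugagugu
hsa-miR-367-3p: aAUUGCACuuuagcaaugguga
hsa-miR-208a-3p: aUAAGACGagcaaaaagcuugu
hsa-miR-499a-5p: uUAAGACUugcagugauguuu
The 4 miR-302 members share 1 seed, and the other 3 each have their own. In RefSeq (GRCh38.p14) the first 5 lie on chromosome 4 within MIR302CHG, miR-208a within MYH6 on chromosome 14 and miR-499a within MYH7B on chromosome 20. MYH7B had 0.713, 0.437 and 0.768 CPM in the 3 D4 libraries and 5.74, 7.99 and 5.33 in the 3 D8 libraries, and was higher in every D8 library.

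Genes of cell division fell as a block. All 45 members of the replication and mitosis lists were tested and called lower, 29 of them at least 2-fold, beside the 33.8% of all tested genes called lower; the medians were -1.33 and -0.96. CDC45, part of the replicative helicase, had 33.9, 34.9 and 33.5 CPM in the 3 D4 libraries and 6.91, 8.85 and 9.34 in the 3 D8 libraries, with a log2 fold change -2.02 (SE 0.12, edgeR adjusted p = 2.2e-12). MKI67, the antigen used to mark cycling cells, had 329, 298 and 302 CPM in the 3 D4 libraries and 124, 108 and 111 in the 3 D8 libraries, with a log2 fold change -1.44 (SE 0.12, edgeR adjusted p = 6.33e-10). No D8 library reached the level of a D4 library for either gene, yet the transcripts were not absent at D8. CCNB1, the mitotic cyclin, fell from 160.0 to 77.3 CPM. Of 9 D cyclins and cell cycle inhibitors, 3 were higher and 3 lower, near the 35.0% and 33.8% of all tested genes. CDKN1C, an inhibitor of the Cip/Kip family, rose from 14.7 to 29.9 CPM and CDKN1B from 27.8 to 53.5 CPM. CDKN1A fell from 29 to 16.4 CPM and CCND2 from 114 to 78 CPM.

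Energy supply genes rose, with a difference between genomes. Of 30 genes of fatty acid use and muscle energy, 29 were tested; 23 were higher and 3 lower, with a median of 1.22. Their mean summed level was 2634 CPM in WT stem cells at day 0, 1614 at D4 and 2636 at D8. CKM, the muscle creatine kinase, had 3.13, 3.64 and 4.25 CPM in the 3 D4 libraries and 228, 185 and 138 in the 3 D8 libraries, with a log2 fold change 5.65 (SE 0.17, edgeR adjusted p = 6.69e-17). PPARGC1A, the coactivator of mitochondrial gene expression, had 1.01, 0.832 and 0.576 CPM in the 3 D4 libraries and 47.5, 40.6 and 35.9 in the 3 D8 libraries. Both were higher in every D8 library. The lipase LPL rose from 1.65 to 83.4 CPM, the fatty acid carrier FABP3 from 3.21 to 47.2 CPM and myoglobin (MB) from 0.755 to 20.6 CPM, and COX6A2, the muscle form of a cytochrome oxidase subunit, was at 0 counts in the D4 group and at 7.83, 7.21 and 4.93 CPM at D8, at least 312-fold higher against a floor of 3 counts over the D4 group. CPT1B, the muscle gate for fatty acid entry into mitochondria, went against the list and fell from 1.53 to 0.744 CPM.

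Of 24 nuclear genes of the respiratory chain, 21 were higher and 3 were not called, with a median of 0.54, and the largest change was that of COX7B, from 35.2 to 71.5 CPM (log2 fold change 1.02, SE 0.10). The mean summed level of these nuclear genes was 5275 CPM in WT stem cells at day 0, 3074 at D4 and 4576 at D8. The 13 protein-coding genes of the mitochondrial genome were all lower, with a median of -1.29 that stayed between -1.36 and -1.21 under every alternative in which they were counted. MT-CO1 had 42610, 39750 and 33890 CPM in the 3 D4 libraries and 19770, 19140 and 15390 in the 3 D8 libraries, with a log2 fold change -1.10 (SE 0.14, edgeR adjusted p = 3.52e-07), and MT-CYB had 10630, 9149 and 8212 CPM in the 3 D4 libraries and 2291, 2640 and 2256 in the 3 D8 libraries, with a log2 fold change -1.96 (SE 0.14, edgeR adjusted p = 4.86e-11). Summed over the 13 genes, the level was 159200, 146900 and 127400 CPM at D4 and 61410, 62510 and 51410 at D8, against a mean of 26430 in WT stem cells at day 0 (D0). The D4 libraries stood highest, and the D8 libraries lay between D4 and D0. Of 21 glycolysis genes, 11 were higher and 5 lower, with a median of 0.22; the glucose carrier SLC2A3 rose from 456 to 1377 CPM and PDK1, which restrains pyruvate entry into the citric acid cycle, from 58.9 to 356 CPM, while the pyruvate kinase PKM fell from 1206 to 942 CPM.

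Of 26 WNT genes, 25 were tested; 10 were higher and 11 lower, shares not far from the 35.0% higher and 33.8% lower of all tested genes, with a median of -0.11. WNT3A, a ligand of the canonical pathway, had 3.32, 3.56 and 3.21 CPM in the 3 D4 libraries and 0.0749, 0.0887 and 0.092 in the 3 D8 libraries, and WNT8A had 4.61, 6.84 and 6.55 CPM in the 3 D4 libraries and 0.0624, 0.038 and 0.102 in the 3 D8 libraries; both were lower in every D8 library. The non-canonical ligand WNT11 rose from 2.38 to 26.5 CPM. WNT2 had 0, 0.0208 and 0 CPM in the 3 D4 libraries and 16.1, 8.04 and 4.52 in the 3 D8 libraries, a counting ratio of 1320 (95% interval 237 to 52140) that rests on 1 count at D4. The canonical target genes SP5 and LEF1 fell from 5.74 to 1.79 CPM and from 22.3 to 9.49 CPM, and AXIN2 fell little, from 13 to 10.3 CPM.

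Of 23 BMP and TGF-beta genes, 17 were higher and 2 lower, with a median of 0.87. TGFB2, a ligand needed for valve and outflow formation, had 6.41, 4.84 and 7.84 CPM in the 3 D4 libraries and 199, 130.1 and 107 in the 3 D8 libraries, with a log2 fold change 4.52 (SE 0.21, edgeR adjusted p = 6.73e-14). It was highest in D8 replicate 2, and the days did not overlap. The targets MSX2 and ID1 rose from 13.5 to 115 CPM and from 242 to 369 CPM, and the pseudoreceptor BAMBI from 82.1 to 368 CPM, while the antagonists CHRD and GREM1 fell, CHRD from 31.3 to 11.3 CPM, and NOG rose from 1.15 to 16 CPM. Of 16 NOTCH genes, 7 were higher and 7 lower, which is likewise not far from those shares; the ligands JAG1 and DLL3 fell from 412 to 108 CPM and from 28.1 to 3.33 CPM, while DLL4, the endothelial ligand, and the target HEY1 rose from 0.293 to 3.7 CPM and from 5.08 to 18.1 CPM. Of 16 retinoic acid genes, 6 were higher and 6 lower, near the same shares; CYP26A1, which degrades retinoic acid, fell from 78.9 to 21.7 CPM, the receptor RARG fell from 50.8 to 20.5 CPM, and the receptors RARA and RARB rose from 13.1 to 33 CPM and from 14.1 to 41.1 CPM.

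Markers of other cell types were measured because no sorting of the cultures is described. Of 15 surface ectoderm and amnion genes, 13 were tested and all 13 were higher, with a median of 3.27; KRT5 and KRT14 were too low to be tested. GABRP, a GABA receptor subunit of amnion and other epithelia, had 5.63, 1.5 and 1.44 CPM in the 3 D4 libraries and 164, 333 and 374 in the 3 D8 libraries, with a log2 fold change 6.62 (SE 0.43, edgeR adjusted p = 1.54e-11). TFAP2A, the AP-2 factor of surface ectoderm, had 26.3, 13 and 14 CPM in the 3 D4 libraries and 134, 177 and 207 in the 3 D8 libraries, with a log2 fold change 3.27 (SE 0.22, edgeR adjusted p = 1.99e-11). Days did not overlap, and D8 replicate 2 was the lowest of its group for both. Summed over the list, the level was 172, 124 and 133 CPM at D4 and 749, 1191 and 1370 at D8.

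Across the 3 D8 libraries, these markers and the contractile genes ran in opposite orders. The summed thick filament list had 458, 395 and 439 CPM at D4 and 16540, 13330 and 9472 at D8, so that D8 replicate 2 was highest and replicate 4 lowest, whereas the amnion list was lowest in replicate 2 and highest in replicate 4. Cardiac transcription factors, at 428, 437 and 531 CPM at D4 and 1777, 1715 and 1506 at D8, followed the contractile order. Endoderm, at 175, 179 and 188 CPM at D4 and 283, 436 and 442 at D8, and the epithelial list, at 3548, 3416 and 3377 CPM at D4 and 5842, 7371 and 7724 at D8, followed the amnion order. The epicardial list, at 103, 144 and 157 CPM at D8, did so too. Not all lists of other cell types did. Endothelial genes, at 317.5, 283.7 and 257.0 CPM at D8, followed the contractile order. The blood, smooth muscle, matrix, neural and skeletal muscle lists also followed it. These orders rest on 3 libraries. The part of this in the size of any change was not tested; with any 1 of the 6 libraries left out, 14044 to 14523 genes were called.

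**Figure D4:**
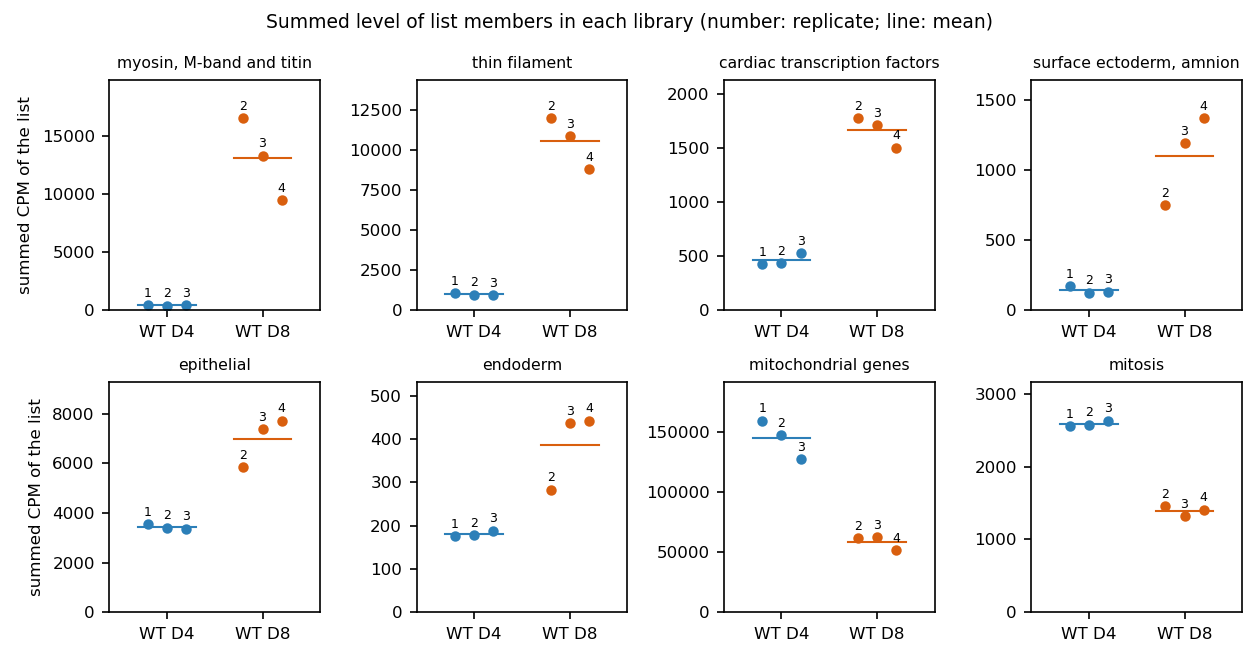
Summed CPM of 8 gene lists (vertical axes, from 0) in each WT library at D4 and D8, with replicate numbers beside the points and lines for the means. Contractile sums at D8 are highest in replicate 2 and lowest in replicate 4, and the surface ectoderm and amnion, epithelial and endoderm sums run the other way.

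Of 16 epithelial genes, 9 were higher and 2 lower; KRT8 and KRT18, paired keratins of simple epithelia, rose from 1110 to 2968 CPM and from 387 to 1400 CPM. Endoderm and liver markers were higher in 9 and lower in 4 of 16 tested (17 listed): TTR, a thyroid hormone carrier, had 0.413, 0.291 and 0.264 CPM in the 3 D4 libraries and 63.5, 89.6 and 95.4 in the 3 D8 libraries, and AFP had 0.3, 0.291 and 0.312 CPM in the 3 D4 libraries and 16.2, 54.9 and 58 in the 3 D8 libraries, with D8 replicate 2 the lowest in each case, while SOX17, the factor that specifies endoderm, fell from 30.5 to 1.19 CPM. All the D8 values of TTR and AFP lay far above the D4 values.

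Endothelial genes were higher in 11 and lower in 2 of 15 tested (16 listed). CDH5, the cadherin of vessel walls, had 1.03, 1.08 and 1.18 CPM in the 3 D4 libraries and 44, 40.2 and 37.7 in the 3 D8 libraries, with a log2 fold change 5.21 (SE 0.16, edgeR adjusted p = 6.99e-17), and PLVAP, which forms the diaphragms of fenestrae, rose from 0.642 to 56.6 CPM. VWF, a clotting protein stored in endothelium, fell from 130.5 to 6.56 CPM. Of 14 blood genes, 11 were tested, with 3 higher and 3 lower, beside 35.0% and 33.8% of all tested genes. TAL1 and LMO2, factors of the earliest blood and endothelium, rose from 0.62 to 5.91 CPM and from 1.14 to 14 CPM. KLF1, a factor of red cells, fell from 6.27 to 0.682 CPM.

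Smooth muscle and pericyte genes were higher in 6 and lower in 3 of 11. ACTA2, smooth muscle actin, which early heart muscle also expresses, had 3.09, 2.97 and 3.24 CPM in the 3 D4 libraries and 533, 380.4 and 331 in the 3 D8 libraries, with a log2 fold change 7.06 (SE 0.15, edgeR adjusted p = 5.02e-19). LMOD1 rose from 2.47 to 74.6 CPM and MYH11, the smooth muscle myosin, only from 3.1 to 6.91 CPM, while the pericyte receptor PDGFRB fell from 29.7 to 13.7 CPM. Matrix genes were higher in 5 and lower in 9 of 19: COL1A2 and elastin (ELN) fell from 587 to 149 CPM and from 37 to 1.43 CPM, and fibronectin (FN1), versican (VCAN) and the hyaluronan linker HAPLN1 rose from 3020 to 5277 CPM, from 1303 to 2286 CPM and from 97.7 to 620.4 CPM. Of 7 epicardial genes, 3 rose, BNC1 from 2.01 to 67.1 CPM, LRRN4 from 10.1 to 63.9 CPM and WT1 from 0.0264 to 1.76 CPM, and 4 were not called, TBX18 among them.

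Neural and neural crest genes were higher in 4 and lower in 8 of 14 tested (18 listed), beside 35.0% and 33.8% of all tested genes. The crest factors FOXD3 and SOX10 fell from 4.44 to 0.0278 CPM and from 6.52 to 0.813 CPM, whereas NES, an intermediate filament of progenitors and of early muscle, rose from 314 to 891 CPM. PAX6 was too low to be tested. Of 16 skeletal muscle genes only 8 could be tested, 3 higher and 2 lower; the skeletal master factor MYOD1 was not tested, at 0.0538 ± 0.0266 CPM at D4 (SD, n = 3), and TNNT1, slow skeletal troponin T, fell from 81.9 to 31.4 CPM.

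QKI, the RNA-binding protein on which the study turns, had 144, 139 and 156 CPM in the 3 D4 libraries and 368, 319 and 285 in the 3 D8 libraries, with a log2 fold change 1.15 (SE 0.09, edgeR adjusted p = 3.59e-10), and was higher in every D8 library. Of 22 tissue splicing regulators, 13 were higher and 3 lower, with a median of 0.51. MBNL2, a muscleblind protein that promotes adult splice forms, rose from 2.63 to 32 CPM, RBM38 from 54.2 to 214 CPM, RBM24, a cardiac splicing factor, from 30.3 to 85 CPM and RBFOX1 from 2.56 to 9.02 CPM. RBM20, which controls titin splicing, had 32.1, 32.7 and 39 CPM in the 3 D4 libraries and 40.3, 33.8 and 25.7 in the 3 D8 libraries and was not called (edgeR adjusted p = 0.666). PTBP1, a repressor of many tissue exons, fell from 535 to 402 CPM (log2 fold change -0.41, SE 0.06). Of 24 proteins of the U4/U6.U5 tri-snRNP, the splicing particle that brings in U6, 3 were higher and 12 lower, with a median of -0.16; PRPF3 fell from 73.7 to 42 CPM and EFTUD2 from 176 to 131 CPM, and PRPF6 rose from 114 to 151 CPM.

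Of 75 cytosolic ribosomal protein genes, 74 were tested; 68 were higher and 3 lower (RPL3, RPS10 and RPSA), with a median of 0.62. These genes have many processed copies in the genome, so the level of a single one is uncertain. Of 14 genes of the endoplasmic reticulum and amino acid stress response, 11 were higher, ATF3 from 3.69 to 27.1 CPM, while the chaperone HSPA5 fell from 1072 to 524 CPM. Of 14 p53 targets, 5 were higher and 8 lower, beside 35.0% and 33.8% of all tested genes. Imprinted genes were higher in 8 and lower in 4 of 13: H19 had 47.3, 70.4 and 104 CPM in the 3 D4 libraries and 421, 719 and 1011 in the 3 D8 libraries, lowest in D8 replicate 2, and MEG3, like H19 a noncoding RNA of the maternal allele, had 441, 383 and 340.0 CPM in the 3 D4 libraries and 113, 127 and 159.9 in the 3 D8 libraries. The first rose and the second fell without overlap. Of 39 HOX genes, 11 were tested; 8 were higher, each at least 2-fold, and 3 were not called, with a median of 3.86, or 3.48 with the 1 gene at 0 counts at D4 set at its bound. Their summed level was 22.1, 21.3 and 30.9 CPM at D4 and 55.3, 72.6 and 86.5 at D8. HOXB1, a gene of the early hindbrain, rose from 0.117 to 7.78 CPM.

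By change in CPM, which is not scaled for gene length, the 10 largest rises were those of MYH6, EEF1A1, ACTC1, TPM1, FN1, EEF2, COL2A1, KRT8, MYL7 and ACTG1. COL2A1, the collagen of cartilage and of early mesenchyme, had 319, 299 and 386 CPM in the 3 D4 libraries and 2201, 2306 and 2191 in the 3 D8 libraries. EEF1A1 and EEF2, which drive translation elongation, rose from 6838 to 11630 CPM and from 2582 to 4519 CPM. The 10 largest falls all belonged to the mitochondrial genome.

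By fold, 735 called genes rose and 570 fell at least 8-fold. The 12 highest, among genes with a mean of at least 10 CPM over the 6 libraries, were ABRA, CSRP3, HSPB7, A2M, SMPX, MYOZ2, NPPA, CTD-2545M3.8, MYH6, MYH7, PLN and SGPP2. ABRA, an actin-binding activator of SRF in muscle, had no count at D4 and 36.7, 37.9 and 30.7 CPM at D8, at least 1660-fold higher against a floor of 3 counts over the D4 group. A2M, a protease inhibitor, had 0.0187, 0.0416 and 0.024 CPM in the 3 D4 libraries and 95.6, 85.2 and 73.1 in the 3 D8 libraries. The long noncoding RNA CTD-2545M3.8 had 0.375, 0.374 and 0.432 CPM in the 3 D4 libraries and 376, 468 and 382 in the 3 D8 libraries, and was the only noncoding gene among the 12. All 3 were near 0 in each D4 library.

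Among the 12 lowest were EGFLAM-AS4, CDH22, RP11-431J24.2, SHISA3, the MIR302B row, EOMES, INSRR, RP11-426L16.8, ZIC2, CAMKV and PDZD4. EGFLAM-AS4, an antisense transcript, had 21.9, 26.6 and 16.9 CPM at D4 and no count at D8, at least 1885-fold lower against a floor of 3 counts over the D8 group. CDH22, a cadherin, had 22, 29 and 26.5 CPM in the 3 D4 libraries and 0.0374, 0.0634 and 0.0102 in the 3 D8 libraries, and was at 0.221 ± 0.0798 CPM at D0. It was thus high at D4 and low on both other days. ZIC2, a zinc finger factor of stem cells and the midline, had 40.3, 38.7 and 37 CPM in the 3 D4 libraries and 0.387, 0.596 and 0.654 in the 3 D8 libraries. It was low in every D8 library.

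The KO course from D4 to D8 offers a comparison, in which genotype and CHIR dose change together and cannot be told apart. In libraries labelled KO, QKI had 88.5, 68.2 and 78 CPM at D4 and 339.8, 329 and 336 at D8, so that its RNA was lower than in WT at D4 and in the WT range at D8; read counts over a gene do not check whether a working protein is made. In KO, 75.0% of tested genes were called between D4 and D8 (16325 genes). The difference between the KO and WT changes, tested as an interaction, was called in 41.5% (9037 genes), 19.6% higher and 21.9% lower in KO; scaled by total counts alone, 2355 of 9444 were higher, against 4267 of 9037.

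Surface ectoderm and amnion genes rose in WT, without a like rise in KO. In KO their summed level fell, from a mean of 173 CPM at D4 (169.1 to 175.5) to 92.8 at D8 (84.85 to 103.9). Their WT median of 3.27 stood beside 0.33 in KO, and the interaction was called lower for 12 of the 13 tested members, beside 21.9% lower over all tested genes. Of the 13 mitochondrially encoded genes, 12 were called higher in the interaction: their median was -0.12 in KO. Nuclear respiratory chain genes were called higher for 22 of 24, with a KO median of 1.31. Contractile medians in KO were 5.44, 5.03 and 6.21, each above that of WT. The summed thick filament list went from 507 to 28100 CPM in KO and from 431 to 13110 in WT. The thin filament list went from 853 to 18120 in KO and from 985 to 10540 in WT. The Z-disc list went from 727 to 6813 in KO and from 735 to 3812 in WT. The interaction was called higher for 6 of 13 thick filament, 5 of 11 thin filament and 6 of 21 Z-disc genes tested. It was called lower for 2 of the Z-disc genes, among them ACTN2 at -2.21. The other tested members were not called. Mitosis genes were called lower for 19 of 21 in the interaction, and their median was -1.51 in KO.

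**Figure D5:**
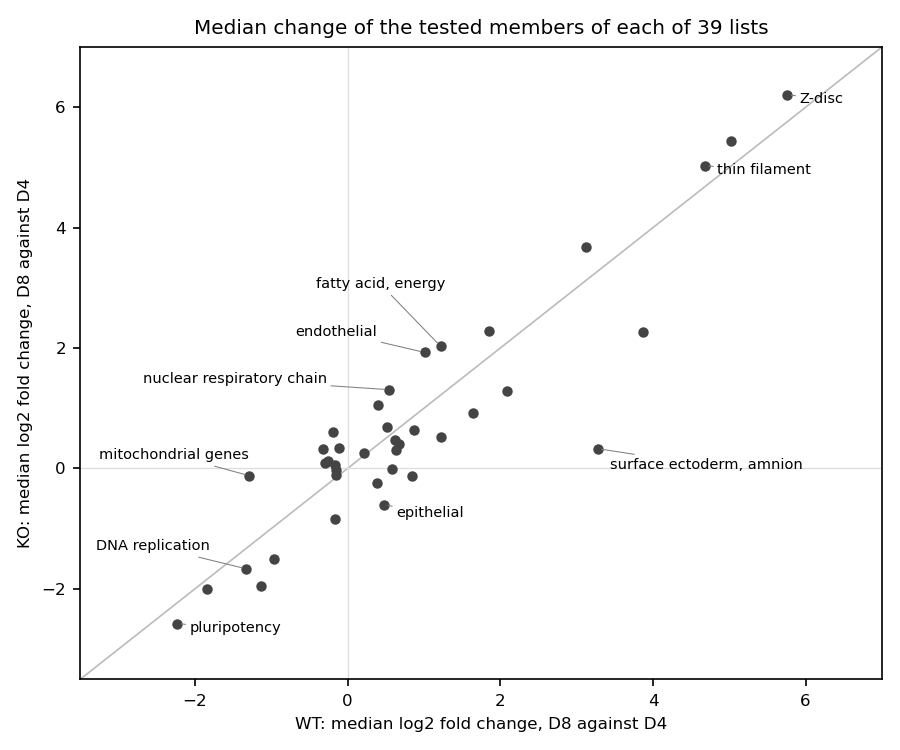
Median log2 fold change between D4 and D8 of the tested members of each of 39 lists, in WT (horizontal axis) and in libraries labelled KO (vertical axis); the line marks equal medians. The surface ectoderm and amnion list, at 3.27 in WT and 0.33 in KO, lies far below the line, and the mitochondrial genes above it.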

How the data were processed

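Poly(A) RNA of whole cells was made into stranded libraries, per the labels' protocols, and the authors deposited read counts per gene (whole numbers, not normalised). The submitters' processing notes name DESeq, featureCounts, STAR, cutadapt and UMI-tools and the build hg19, with no roles; tool versions, the strand setting and the gene annotation were not given in the sources used here, so overlapping and antisense genes may share reads.

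All 18 whole-cell libraries (40001076 to 89948185 counts) entered 1 fit in edgeR 4.0.16 (R 4.3.3): filterByExpr, TMM, 1 mean per group, the quasi-likelihood test, two-sided, Benjamini-Hochberg adjusted p under 0.05 over 21761 genes; the biological coefficient of variation was 8.23%. The comparisons were WT D8 against D4, KO D8 against D4 and their difference. Replicate libraries of WT D4 and of WT D8 were checked and none was a copy of another (chi-square per degree of freedom 10.0 to 63.4). The D0 and KO libraries were not checked in this way. Gene types and exon lengths came from an annotation of GRCh38, matched by gene identifier, and sequences from RefSeq. Counts were simulated for WT D8 against D4 (21761 genes), with 100 genes changed 1.5-fold, 100 changed 2-fold and no other change put in. Of these, 60 changed 1.5-fold and 72 changed 2-fold were recovered, with 12 false calls. In the data 68.8% of the tested genes were called, and recovery with so many changes was not tested, nor was the number of false calls.

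For a group with no count, folds are bounds against 3 counts over the group; with 1 to 3 counts they are ratios whose 95% interval, like the floor, covers counting error only. The lists and named genes were chosen with earlier results of these data known: QKI, the 12 highest and 12 lowest log2 fold changes (called, mean of at least 10 CPM, no overlap), the 10 largest rises and falls in CPM, the 5 highest and 5 lowest differences between KO and WT changes, and from each list preset members and the 3 highest and 3 lowest called members at 1 CPM or more; further members were named after their values were seen. Alternatives were DESeq2 1.42.0, its size factors, total counts, mitochondrial genes left out, no filter, equal depth, a replicate block, only the 6 WT libraries, and each replicate left out. Splicing tables, nuclear and 293T samples were not used here, and a few genes that the naming rule covers are not reported here.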

Additional observations from a re-analysis of the deposited data

Results flagged for a closer look

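The difference between the KO and WT changes from D4 to D8 was tested as an interaction in edgeR, and the genes below are given because it passed the threshold. Genotype and CHIR dose differ together in all of them. In all, 9037 genes were called.

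Among genes named for the lowest differences, NNAT, an imprinted gene, differed by -10.51 (SE 0.68, edgeR adjusted p = 9.58e-10): WT had 27.7, 37.7 and 49.8 CPM in the 3 D4 libraries and 17, 16.9 and 14.4 in the 3 D8 libraries, and KO 6.69, 7.34 and 8.13 CPM at D4 and 0, 0 and 0 at D8. ZNF558, a zinc finger gene, differed by -10.32 (SE 0.26, edgeR adjusted p = 2.06e-16), with 34.1, 39.2 and 36.7 CPM in the 3 D4 libraries and 34.2, 31.8 and 36.7 in the 3 D8 libraries in WT and 16.3, 17.6 and 17.4 CPM at D4 and 0, 0 and 0.0338 at D8 in KO. Since the KO D8 libraries held 0 or close to 0 counts for both, the fitted sizes depend on the prior count and are no bounds. MEG3 differed by -6.83 (SE 0.28), with 462, 433 and 470.3 CPM at D4 and 1.81, 1.21 and 1.08 at D8 in KO. ABCG2, a drug transporter, differed by -5.88 (SE 0.37, edgeR adjusted p = 1.74e-10), with 3.69, 2.25 and 1.66 CPM in the 3 D4 libraries and 80.6, 104 and 128 in the 3 D8 libraries in WT and 2.17, 2.26 and 3.88 CPM at D4 and 2.54, 1.24 and 1.89 at D8 in KO. GABRP differed by -5.25 (SE 0.77), with 1.17, 1.13 and 1.33 CPM at D4 and 3.18, 1.11 and 5.2 at D8 in KO. The first 3 of these 5 genes fell in KO to far below their WT levels, and the last 2 rose in WT and stayed low in KO.

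Among the highest differences, GPR55, a lipid receptor, differed by 5.60 (SE 0.46), with 11.1, 14 and 14.8 CPM in the 3 D4 libraries and 0.0125, 0 and 0.0204 in the 3 D8 libraries in WT and 37.1, 36.7 and 33.3 CPM at D4 and 1.62, 1.77 and 2.03 at D8 in KO; it fell in both, and its WT value at D8 rests on 3 counts or fewer. COL3A1 differed by 3.31 (SE 0.47, edgeR adjusted p = 1.32e-05), with 9.79, 6.2 and 9.12 CPM in the 3 D4 libraries and 10.8, 14.2 and 9.09 in the 3 D8 libraries in WT and 46.4, 18 and 9.57 CPM at D4 and 348, 368 and 286 at D8 in KO. TRH, the thyrotropin-releasing hormone gene, differed by 3.26 (SE 0.36), with 1.31, 1.39 and 1.02 CPM at D4 and 60.6, 78 and 103 at D8 in KO. TBX5 differed by 3.13 (SE 0.37), with 0.842, 0.645 and 0.545 CPM at D4 and 86.5, 104 and 113 at D8 in KO. ASB2, a muscle ubiquitin ligase subunit, differed by 2.98 (SE 0.83, edgeR adjusted p = 0.00649), with 0.131, 0.104 and 0.216 CPM in the 3 D4 libraries and 71.5, 66.7 and 47.2 in the 3 D8 libraries in WT and 0.0516, 0.0202 and 0.0436 CPM at D4 and 109, 139.7 and 154 at D8 in KO. The D4 levels of ASB2 were near 0 in WT and KO, with 21 counts over the 3 WT libraries, so its difference rests on few counts. QKI differed by 0.95 (SE 0.13).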

How the results depend on the processing

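The number of genes called between D4 and D8 in WT, 14975, went from 13777 (only the 6 WT libraries) to 15341 (no filter) over the alternatives, and from 14044 to 14523 with 1 library left out. Of the called genes, 50.9% were higher, 54.2% with total counts and 54.0% with mitochondrial genes left out, and these scalings moved the median of all genes to 0.06 and 0.05. For the difference between KO and WT changes, total counts gave 2355 genes higher where TMM gave 4267; the cause was not tested. No named gene changed direction between D4 and D8 in WT where it was called in the main fit or in the alternative. Changes of sign in genes called in neither were not counted. The median of the tested blood genes, -0.16, became 0.0657 with only the 6 WT libraries and 2.79 at equal depth, where fewer of them were tested. The HOX median, 3.86, became 2.72 with only the 6 WT libraries, 2.87 at equal depth and 3.41 without D4 replicate 1. That of the epicardial genes, 0.40, became 2.65 with only the 6 WT libraries. Of 289 named genes, 32 calls in 14 genes were lost and 10 in 8 genes gained over the 6 libraries left out in turn; these had small changes, such as MIXL1, COL1A1, LDHB and PTBP2. WT groups share only replicate numbers 2 and 3, and the deviations of same-numbered libraries correlated at 0.03 and 0.00, so the numbers were not taken to pair libraries; with the replicate block, 14565 genes were called in WT, 16108 in KO and 9570 in the difference. Depth limits genes near 0 at D4, where totals were lower.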

Other observations

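Some genes crossed from near silence to clear expression. With limits chosen after the values were seen, 52 genes were under 1 CPM in every D4 library and at 10 CPM or more in every D8 library, and 25 did the reverse. Of the 52, 49 are protein-coding. Beside sarcomere genes they include CORIN, the protease that activates atrial natriuretic peptide, from 0.609 to 146.8 CPM, APOBEC2, a muscle member of the deaminase family, from 0.253 to 97.9 CPM, RRAD, a small GTPase that restrains calcium channels, from 0.174 to 65.5 CPM, VCAM1, an adhesion receptor, from 0.0424 to 24.2 CPM, and the ligands SHH, from 0.158 to 13.1 CPM, and GDF6, from 0.307 to 45.5 CPM. Of the 25 that went off, 19 are protein-coding; LINC00458, RP11-256I9.2 and RP11-1144P22.1 were at 309, 340 and 209.8 CPM at D0 and had fallen to 31.7, 14.8 and 12.8 CPM at D4 and 0.689, 0.0785 and 0.268 CPM at D8, while DMBX1, DRD2 and PSKH2 were under 1 CPM at D0 and D8 and at 19.7, 14.2 and 15.2 CPM at D4.

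By gene type, rows of small RNA genes moved apart from the rest. Of 110 tested snoRNA rows, 61 were lower in edgeR and the rest were not called, with a median of -1.33, and of 62 miRNA rows 35 were lower and 6 higher, with a median of -0.86. Of 191 sense-intronic transcripts, 78 were lower and 23 higher, with a median of -0.47, beside 6226 higher and 5486 lower of 15780 protein-coding genes. Many of these rows lie inside other genes, and their reads cannot be told apart from those of the host transcript here.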
